A study of Mus musculus with 64 samples.

Results

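The comparison set brown adipose tissue (BAT) against epididymal white adipose tissue (eWAT) in mice whose adipocytes lack *Nampt*, and asked which differences between the 2 depots remain without it. It used all 32 libraries of these fat-specific *Nampt* knockout (FANKO) mice, 16 of BAT and 16 of eWAT, of 64 libraries in the series. The other 32, 16 of BAT and 16 of eWAT, came from wild-type (WT) mice and served as the reference for the size of each depot difference. In each depot and genotype, 4 libraries were made at each of 4 time points, zeitgeber time (ZT) 6, 10, 18 and 22, where ZT 0 is lights on, so that ZT 6 and ZT 10 fell in the light phase and ZT 18 and ZT 22 in the dark phase. All mice were male, 2 to 4 months old and fed chow. FANKO mice carried the NamptTM1Jtree allele, in which exon 3 of *Nampt* is flanked by loxP sites, together with Adiponectin-Cre, and their WT littermates carried no Cre. The adiponectin promoter drives Cre in the adipocytes of both depots, so immune, vascular, stromal and mesothelial cells of FANKO tissue kept an intact gene. Because the deletion removes exon 3 alone and reads were counted over the whole gene, a *Nampt* count in FANKO tissue can come from other cells or from transcripts that lack that exon.

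NAMPT is the rate-limiting enzyme of the salvage pathway that remakes NAD from nicotinamide, and NAD is the electron carrier of fuel oxidation as well as the substrate of sirtuins and poly-ADP-ribose polymerases. Brown adipocytes are packed with mitochondria, oxidize fatty acids and glucose, and release the energy as heat through the uncoupling protein UCP1. White adipocytes of the epididymal pad store triglyceride in a single large droplet and secrete leptin and other adipokines, and the pad is covered by a mesothelium that interscapular BAT lacks.

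Libraries held 7992763 to 27792416 counts over genes in FANKO BAT and 6117343 to 22855470 in FANKO eWAT, and those of the mitochondrial genome took 7.48 to 24.7% of them in BAT and 6.11 to 14.6% in eWAT. Levels are given as CPM, each count relative to the total of its library after scaling by edgeR's TMM factors. Mesothelial markers summed to between 169 and 249 CPM in every eWAT library and to at most 4.59 CPM in BAT, and *Ucp1* separated all libraries of the 2 depots. Some libraries also held markers of other tissues or cell types, and where these came from was not tested. The sum of 10 skeletal muscle markers passed 20 CPM in 5 BAT libraries, 3 of them at ZT 18, and reached 409 CPM against a BAT median of 4.68, while the same sum was 25.4 to 114.5 CPM in the 16 FANKO eWAT libraries, all of them above 20 CPM. The sum of 10 epididymis markers passed 10 CPM in 5 eWAT libraries and reached 51.6 CPM, and that of 8 B and plasma cell markers passed 500 CPM in 6 BAT libraries and reached 1803 CPM. Results that changed without these libraries are given both ways. In bulk tissue, fewer cells of a type and less RNA per cell cannot be told apart.

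*Nampt* (ENSMUSG00000020572, GRCm38 chromosome 12, 32819545 to 32853349, forward strand) was at almost the same level in the 2 FANKO depots. Its lowest, median and highest CPM were 109, 143 and 186 in BAT and 101, 114 and 131 in eWAT, and the ranges overlapped. In WT mice the medians were 702 CPM in BAT and 150 CPM in eWAT. A log2 fold change is BAT minus eWAT throughout, averaged over the 4 time points, so a positive value is higher in BAT. For *Nampt* it was 0.29 (SE 0.07, adjusted p = 0.000125, edgeR quasi-likelihood test) in FANKO mice and 2.11 (SE 0.07) in WT mice, and the 2 differed (adjusted p = 4.93e-24). The direction in FANKO mice was the same at each time point, from 0.16 at ZT 6 to 0.45 at ZT 18.

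Of 20249 genes tested, 5668 (28.0%) were higher in FANKO BAT and 6401 (31.6%) higher in FANKO eWAT at a false discovery rate (FDR) below 0.01. The larger side depended on the scaling, with 6737 higher in BAT and 5424 in eWAT by RLE size factors and 6420 and 4980 by library size alone. A gene was called over 2-fold when its difference exceeded a log2 fold change of 1 in the same test at that FDR. That held for 1458 genes (7.20%) higher in FANKO BAT and 1248 (6.16%) higher in FANKO eWAT, against 1864 (9.21%) and 3819 (18.9%) in WT mice. In 1048 genes (5.18%) all 16 FANKO BAT libraries lay above all 16 FANKO eWAT libraries, and in 1824 (9.01%) they lay below. The counts of the gene lists below stand beside these shares of all genes tested.

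The white side of the WT difference was the larger, and most of its genes were no longer over 2-fold different in FANKO mice. Of the 3819 genes over 2-fold higher in WT eWAT, 991 (25.9%) were so in FANKO eWAT, 2384 (62.4%) were over 2-fold in neither direction and 444 (11.6%) were over 2-fold higher in FANKO BAT. Of the 1864 genes over 2-fold higher in WT BAT, 376 (20.2%) were so in FANKO BAT, 1481 (79.5%) were over 2-fold in neither direction and 7 were over 2-fold higher in FANKO eWAT. By the FDR alone, 1916 of the 3819 were higher in FANKO eWAT and 1027 in FANKO BAT, and 1206 of the 1864 were higher in FANKO BAT and 100 in FANKO eWAT. The first class had a median log2 fold change of -2.45 in WT mice against -0.50 in FANKO mice, and the second of 1.96 against 0.52. These classes were chosen on the WT values, so the WT medians are a description. Read from the FANKO side, 79.4% of the genes over 2-fold higher in FANKO eWAT were so in WT eWAT, whereas 25.8% of those higher in FANKO BAT were so in WT BAT, 30.5% had been over 2-fold higher in WT eWAT and 43.8% were not over 2-fold different in WT mice.

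The depot difference itself differed between the genotypes in 6477 genes towards BAT (32%) and in 6484 towards eWAT (32%), where "towards BAT" means a more positive log2 fold change in FANKO than in WT mice. This split rests on the scaling. The TMM factors had a median of 0.740 in WT BAT and 1.23 in WT eWAT but 1.08 and 1.04 in the FANKO depots, and with library size alone the median genotype difference of all genes moved from 0.05 to 0.88 and the calls became 13624 towards BAT and 1568 towards eWAT. The all-gene median of the FANKO depot difference stayed at -0.01 with TMM and 0.08 with library size. Where the number of genotype differences in a list is given, the count under library size stands beside it if that changes it. List medians and WT counts over 2-fold are given with TMM alone, so the distance between a FANKO and a WT median also rests on the scaling. Genotype differences of single genes are given with TMM alone.

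**Figure D1:**
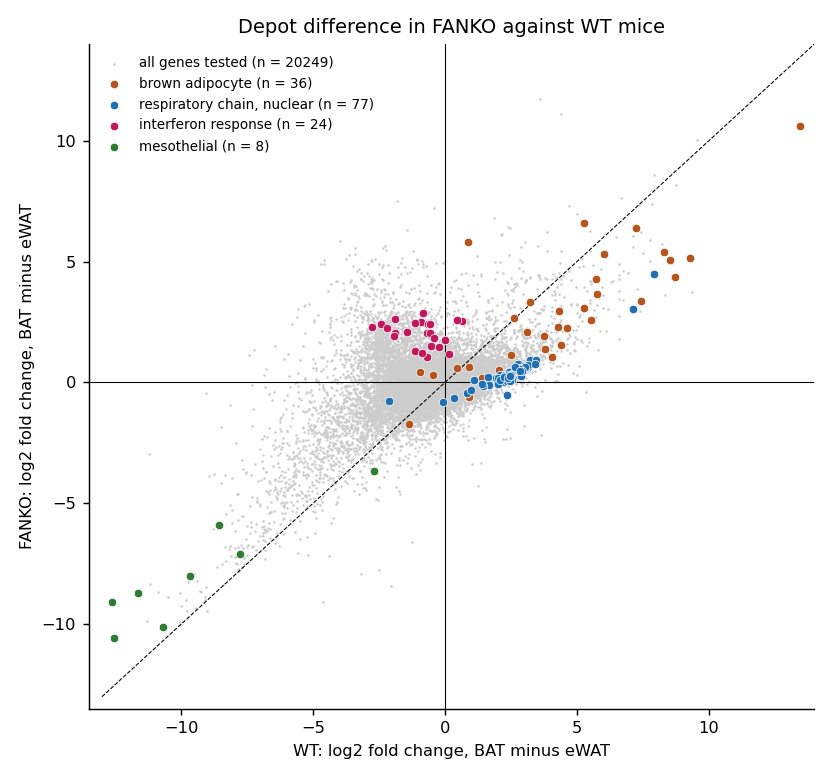
Each point is a gene, with the BAT minus eWAT log2 fold change of WT mice on the x axis and that of FANKO mice on the y axis. Coloured points mark 4 gene lists and the dashed line marks equal differences. Nuclear genes of oxidative phosphorylation lie far to the right with values near 0 on the y axis (medians 2.48 in WT and 0.34 in FANKO mice), and interferon response genes lie to the left of 0 in WT and above 0 in FANKO mice (medians -0.77 and 2.07).

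Genes that define the brown adipocyte stayed among the largest differences towards BAT. Of 36 brown identity genes, 34 were higher in FANKO BAT and 2 in FANKO eWAT, 23 were over 2-fold higher in BAT and 23 did not overlap between the depots. Their median log2 fold change was 2.62, against -0.01 for all genes tested, and was 4.30 in WT mice. The difference was smaller in FANKO mice for 25 of the 36 and larger for 3 (23 and 8 with library size).

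*Ucp1* (ENSMUSG00000031710, GRCm38 chromosome 8, 83290352 to 83298452), the proton carrier that makes brown fat heat, had a lowest, median and highest CPM of 523, 1306 and 2061 in FANKO BAT and of 0.101, 0.826 and 7.10 in FANKO eWAT. The lowest BAT library was above the highest eWAT library by over an order of magnitude. The log2 fold change was 10.59 (SE 0.32, adjusted p = 1.55e-34) in FANKO and 13.46 (SE 0.35) in WT mice, with a median of 4305 CPM in WT BAT.
*Cidea*, a lipid droplet protein of brown adipocytes, ran from 531 to 1110 CPM in FANKO BAT (median 825) and from 25.5 to 67.8 CPM in FANKO eWAT (median 40.6). The FANKO log2 fold change of 4.34 (SE 0.15) compared with 8.73 (SE 0.19) in WT mice, whose eWAT median was 4.13 CPM.
*Fabp3*, a fatty acid carrier, had a median of 24.6 CPM in FANKO BAT, 0.817 in FANKO eWAT and 244 in WT BAT, with log2 fold changes of 5.15 and 9.28. Of its 38-base stretches, the length of a read, 33.5% also occur in other genes, so its count is uncertain.

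With TMM, the difference between genotypes was not called for 3 other brown genes, and it was smaller in FANKO mice for others. *Dio2*, the deiodinase that makes active thyroid hormone, had 13.8, 42.4 and 154 CPM as lowest, median and highest in FANKO BAT and at most 1.398 CPM in FANKO eWAT, with a log2 fold change of 6.59 (SE 0.37) against 5.27 (SE 0.31) in WT mice (difference adjusted p = 0.037, not called). *Elovl3*, an elongase of long fatty acids induced by cold, gave 6.38 against 7.22 (adjusted p = 0.0465, not called). *Ppargc1a*, the coactivator of mitochondrial genes, gave 3.33 against 3.22 with a difference of 0.11 (SE 0.21, adjusted p = 0.655). *Prdm16*, a determinant of brown fate, had a smaller log2 fold change in FANKO mice, 2.10 against 3.12, and *Ebf2*, a transcription factor of brown precursors, had 0.19 against 1.41, with FANKO medians of 39.4 and 34.2 CPM that the library ranges do not separate. The proton channel gene *Otop1* (5.39 against 8.31 in WT mice) and the R-spondin receptor gene *Lgr6* (8.17 against 8.77, SE of the difference 2.65) were also among the 10 largest differences towards BAT. So were *Adprhl1* (5.60 against 7.13), *Myl3* (5.63 against 3.52), *Bmp8b* (5.81 against 0.87) and *Dmrtc1a* (6.38 against 2.45). *Myl3*, a myosin light chain of heart and slow muscle, had 62.0 to 135 CPM in FANKO BAT, at most 3.00 in FANKO eWAT and a median of 2.24 in WT BAT. *Bmp8b*, a secreted factor of brown fat, had 7.86 to 22.4 CPM in FANKO BAT and a median of 0.623 in WT BAT. Exons of both overlap a gene on the other strand (*Pth1r* and *Ppie*), and whether counting used strand is not given in the sources used here. *Ckmt2*, mitochondrial creatine kinase, was called at 2.67, but its value was -0.18 without the 5 muscle-marked BAT libraries.

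The 2 brown identity genes on the eWAT side were *Adrb3*, the main adipocyte receptor of noradrenaline, at -1.72 (SE 0.10) in FANKO and -1.37 in WT mice, and *Nrg4*, a secreted factor of brown fat, at -0.60 (SE 0.08) against 0.92 in WT mice. *Adrb3* had 53.7 to 94.4 CPM in FANKO BAT and 137 to 342 CPM in FANKO eWAT with no overlap, while *Adrb1*, a related receptor, was higher in BAT (log2 fold change 1.14, 4.90 to 9.71 against 1.80 to 4.62 CPM).

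**Figure D2:**
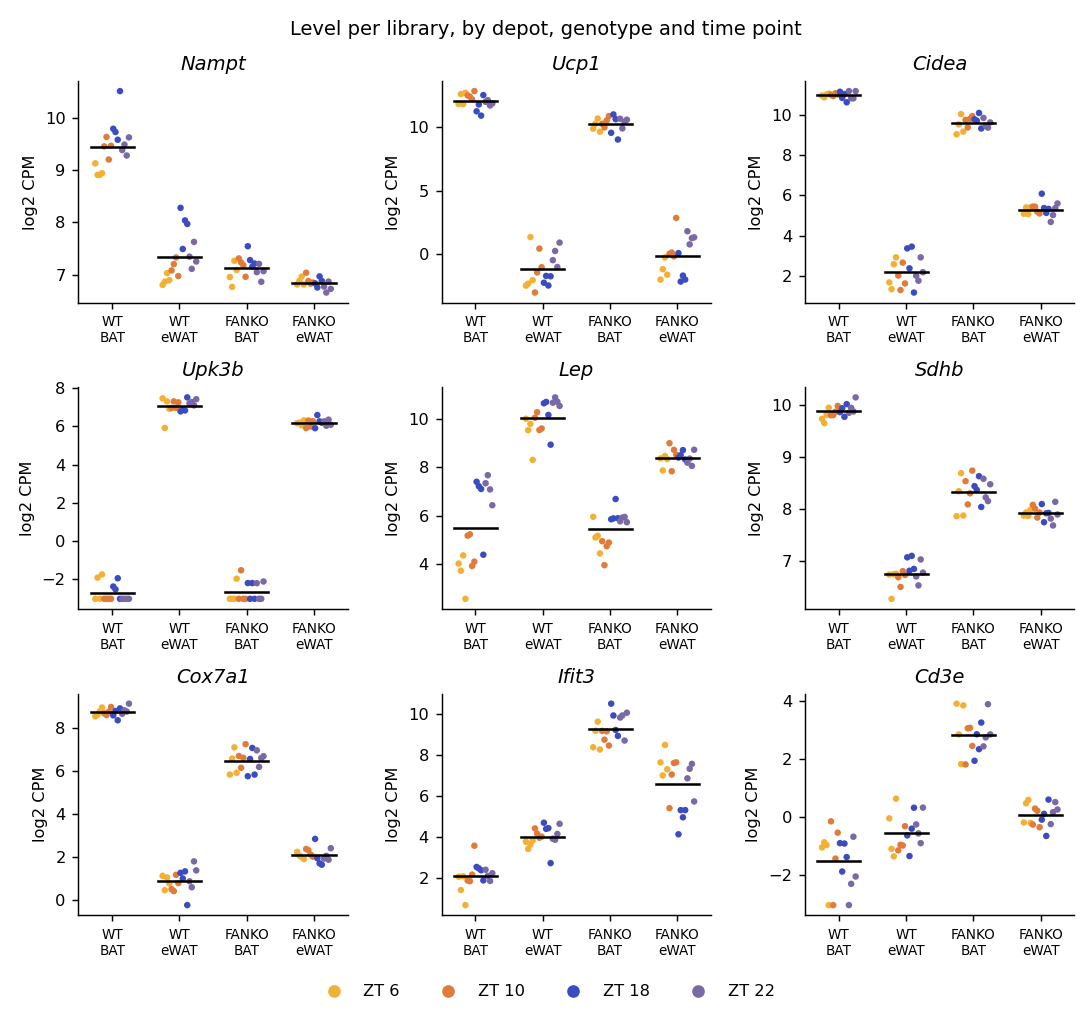
Log2 CPM (prior count 2) of 9 genes in every library, 16 for each combination of depot and genotype, coloured by time point, with a bar at the mean. *Ucp1* and *Upk3b* separate the depots in both genotypes, *Sdhb* separates them widely in WT mice and overlaps in FANKO mice (205 to 281 CPM in eWAT and 232 to 427 CPM in BAT), and *Ifit3* and *Cd3e* are highest in FANKO BAT.

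Genes that mark where in the body a depot arose were called in 26 of 29 tested. Of these position genes, 7 were higher in FANKO BAT and 19 in FANKO eWAT, and in 17 the libraries of the depots did not overlap. Of all genes tested, 28.0% were higher in FANKO BAT and 31.6% in FANKO eWAT, and 5.18% and 9.01% did not overlap. The difference between genotypes was called in 8 towards BAT and 7 towards eWAT (16 and 2 with library size). *Zic1*, a zinc finger factor that marks interscapular brown fat, had 2753 counts over the 16 FANKO BAT libraries and 1 count over the 16 eWAT libraries, a ratio of scaled levels of 2820 (95% interval 506 to 111000 for counting error). *Lhx8*, a LIM homeobox factor, had 1017 counts in BAT and 1 in eWAT, a ratio of 1040 (187 to 41200). *Tbx15*, a T-box factor of brown and subcutaneous fat, had 4.72 to 11.3 CPM in BAT and at most 0.238 in eWAT.
On the visceral side all 6 genes tested were higher in eWAT. *Wt1*, the Wilms tumour factor of mesothelium and visceral fat precursors, had 3003 counts in eWAT and 1 in BAT, a ratio of 2930 (526 to 116000). *Tcf21*, a factor of visceral mesenchyme, had 464 counts in eWAT and 0 in BAT, at least 151-fold higher in eWAT when the floor is set at 3 counts over the group. *Bnc1*, the zinc finger protein basonuclin, had 3037 counts in eWAT and 2 in BAT, a ratio of 1480 (410 to 12200). In the Hox clusters, 9 of 10 posterior genes were higher in eWAT, led by *Hoxc9* (-5.54) and *Hoxc8* (-4.17), and *Hoxa9* was higher in BAT (1.36, at 0.715 against 0.284 CPM as medians).

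The eWAT side was led by its covering layer. All 8 mesothelial markers were over 2-fold higher in FANKO eWAT without overlap, with a median of -8.37 against -10.16 in WT mice. *Upk3b* (ENSMUSG00000042985, GRCm38 chromosome 5, 136038496 to 136046487), a uroplakin of mesothelial cells, had 59.9, 73.2 and 96.6 CPM as lowest, median and highest in FANKO eWAT and at most 0.223 CPM in FANKO BAT, a log2 fold change of -10.58 (SE 0.22, adjusted p = 5.76e-39). *Msln* (-9.07), *Upk1b* (-8.71) and *Muc16* (-8.36), which encode surface proteins of the same cells, and *Lrp2* (-8.88), an endocytic receptor of epithelia, completed this group among the 10 largest differences. The other 3 are best known from liver. *Cyp2e1*, a cytochrome that oxidizes ethanol and acetone, had 1036 to 3868 CPM in FANKO eWAT and 6.88 to 79.1 CPM in FANKO BAT, a log2 fold change of -7.15 against -5.18 in WT mice. *Alb*, which encodes albumin, gave -9.87 with a wide spread of 12.1 to 252 CPM over the eWAT libraries, and *Serpina3k*, a serine protease inhibitor, -7.31 with 1.79 to 61.8 CPM. *Serpina3k* shares 19.4% of its 38-base stretches with other genes, so its count is uncertain.

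Adipokines kept the white side of the difference. Of 24 white and general adipocyte genes, 19 were higher in FANKO eWAT, 13 of them over 2-fold, and 1 was higher in FANKO BAT, with a median of -1.39 against -1.11 in WT mice. Which of these 2 medians is lower may depend on the scaling. Library size moved the all-gene median genotype difference from 0.05 to 0.88. *Lep*, which encodes leptin, had 229, 336 and 515 CPM as lowest, median and highest in FANKO eWAT and 15.2, 53.3 and 103 in FANKO BAT, with no overlap and a log2 fold change of -2.97 (SE 0.20) against -4.47 (SE 0.22) in WT mice. *Adipoq*, which encodes adiponectin and whose promoter drives the Cre, gave -2.02 (SE 0.08) against -1.36, with medians of 1436 CPM in FANKO eWAT and 381 in FANKO BAT. *Agt*, angiotensinogen, gave -5.80 and *Cfd*, adipsin, -4.63. The master regulator *Pparg* was not called (-0.04, SE 0.07, adjusted p = 0.693), and *Cebpb*, an early factor of adipogenesis, was the gene higher in BAT (0.97).

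Genes of the respiratory chain differed little between the FANKO depots. Of 77 nuclear genes of oxidative phosphorylation tested, 53 were still higher in FANKO BAT and 4 in FANKO eWAT, but the median log2 fold change was 0.34 against 2.48 in WT mice, and 2 genes were over 2-fold higher in BAT against 70 in WT mice. The genotype difference was called towards eWAT in 76 of the 77 (71 with library size). Complex I had 29 of 36 genes higher in FANKO BAT, complex III 7 of 9, complex IV 9 of 15 and complex V 8 of 17. Succinate dehydrogenase (complex II) is not part of this list. *Sdhb*, its iron-sulfur subunit, had medians of 327 CPM in FANKO BAT, 242 in FANKO eWAT, 936 in WT BAT and 107 in WT eWAT, a log2 fold change of 0.43 (SE 0.07) against 3.13 (SE 0.07). By these medians FANKO BAT lay below WT BAT and FANKO eWAT above WT eWAT, and the FANKO ranges overlapped. *Cox4i1*, a core subunit of cytochrome c oxidase, had medians of 556 and 523 CPM in FANKO BAT and eWAT (0.07, SE 0.07, adjusted p = 0.386) against 2.34 in WT mice.

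The 2 subunits still over 2-fold higher in BAT were *Cox7a1* and *Cox8b*, the forms of cytochrome c oxidase subunits typical of muscle and brown fat. *Cox7a1* ran from 54.3 to 153 CPM in FANKO BAT and from 3.03 to 7.10 in FANKO eWAT, a log2 fold change of 4.47 (SE 0.15) against 7.91 in WT mice. *Cox8b* gave 3.03 (SE 0.16) against 7.12, with medians of 115 and 14.3 CPM. Neither overlapped between the depots. *Atp5g3* (-0.81), *Atp5g1* (-0.78) and *Cox4i2* (-0.65) were among the 4 higher in eWAT. *Atp5g1* and *Atp5g3* encode the same proton-ring protein of ATP synthase, and *Atp5g1* shares 12.3% of its 38-base stretches with other genes.

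Of the 13 protein genes of the mitochondrial genome, 8 passed the filter, and the other 5 had at most 63 counts in all libraries. In FANKO mice 7 of the 8 were higher in BAT and none over 2-fold, with a median of 0.72 against 2.93 in WT mice. *mt-Co1*, a catalytic subunit of cytochrome c oxidase, ran from 15100 to 28660 CPM in FANKO BAT and from 11850 to 18670 in FANKO eWAT (0.47, SE 0.09), and *mt-Cytb* of complex III was not called (-0.01, SE 0.12, adjusted p = 0.961). *mt-Co1* shares 58.4% of its 38-base stretches with other genes, so its count is uncertain.
The 77 mitochondrial ribosomal proteins tested split into 27 higher in FANKO BAT (17 without replicate 2) and 10 higher in FANKO eWAT with a median of 0.04, against 52 over 2-fold higher in WT BAT and a median of 1.37. The genotype difference was called towards eWAT in all 77 (57 with library size, and 1 towards BAT). *Mrpl3* of the large subunit, which had among the smallest p of this kind, had 34.9 to 47.5 CPM in FANKO BAT and 38.03 to 46.0 in FANKO eWAT (0.03, SE 0.04) against 1.61 in WT mice.

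The enzymes that feed respiration were mostly higher in FANKO BAT. Of 21 citric acid cycle genes, 18 were higher in FANKO BAT and 1 in FANKO eWAT, 5 over 2-fold higher in BAT, with a median of 0.80 against 3.06, and all 21 differed between genotypes towards eWAT under both scalings. *Mdh2*, malate dehydrogenase, was not called (0.10, SE 0.07, adjusted p = 0.255) against 2.19 in WT mice. *Pcx*, pyruvate carboxylase, which makes oxaloacetate from pyruvate, was over 2-fold higher in FANKO eWAT, with 2116 to 3183 CPM against 698 to 1351 in BAT and a log2 fold change of -1.5 against -0.30 in WT mice.
Of 29 fatty acid oxidation genes, 19 were higher in FANKO BAT and 8 in FANKO eWAT, 11 and 1 over 2-fold, with a median of 0.57 against 2.79. *Acsl5*, which activates fatty acids, had nearly the same depot difference in both genotypes with TMM (3.92 and 3.91, difference 0.01, SE 0.12). It had 753 to 1560 CPM in FANKO BAT and 65.7 to 97.5 in FANKO eWAT. *Cpt1b*, the muscle and brown form of the carnitine transferase, gave 3.39 against 7.43 and the general form *Cpt1a* -0.43 against -2.10. *Cpt1b* shares 79.3% of its 38-base stretches with other genes, so its count is uncertain. Mitochondrial beta-oxidation held 13 of 15 genes higher in FANKO BAT, such as *Acaa2* (1.93 against 4.73), whereas 4 of 5 peroxisomal genes were higher in FANKO eWAT.

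**Figure D3:**
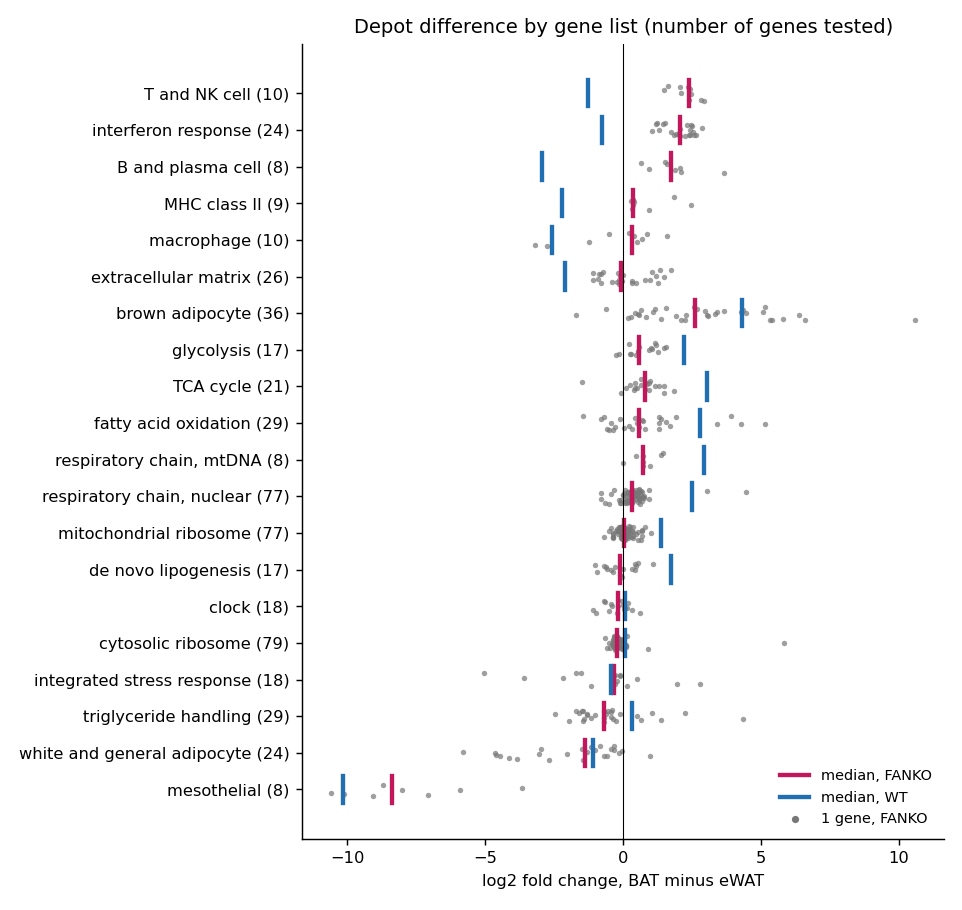
Log2 fold change, BAT minus eWAT, of the members of 20 gene lists. Points are members in FANKO mice and the ticks mark the list median in FANKO and in WT mice. Brown identity and T and NK cell markers have positive FANKO medians (2.62 and 2.38), mesothelial markers lie far below 0 (-8.37), and the respiratory and lipogenic lists have FANKO medians close to 0.

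Genes of fatty acid synthesis were called about as often as all genes tested. Of 17, 5 were higher in FANKO BAT and 5 in FANKO eWAT (3 without replicate 1, the muscle-marked or the B cell-marked libraries). The shares of all genes tested were 28.0% and 31.6%. None of the 17 was over 2-fold different in FANKO mice, where 7.20% and 6.16% of all genes were. Their median was -0.11 against 1.75 in WT mice. *Fasn*, fatty acid synthase, ran from 20250 to 42210 CPM in FANKO BAT and from 22750 to 37740 in FANKO eWAT (0.00, SE 0.19) against 2.14 (SE 0.20) in WT mice. *Acacb*, the acetyl-CoA carboxylase at the mitochondrial surface, was higher in BAT (1.09), and *Srebf1* (-0.96) and *Insig1* (-1.02), a regulator and a partner of sterol sensing, were higher in eWAT. The genotype difference was called towards eWAT in all 17 (11 with library size).
Storage and handling of triglyceride lay on the eWAT side, with 21 of 29 genes higher in FANKO eWAT, 9 over 2-fold, and 6 higher in BAT. *Dgat2*, which makes triglyceride, ran from 2300 to 2927 CPM in FANKO eWAT and from 621 to 1222 in FANKO BAT (-1.59, SE 0.13), while WT medians were 2189 CPM in BAT and 2241 in eWAT (-0.09). *Mogat2*, an acyltransferase of monoglycerides, had 47.3 to 103 CPM in FANKO eWAT, 7.42 to 24.1 in FANKO BAT and a median of 8.20 in WT eWAT. *Plin4*, a droplet coat protein, had nearly the same difference in both genotypes with TMM (-1.97 and -2.02).
Glycolysis stayed on the BAT side, with 15 of 17 genes higher in FANKO BAT, none in eWAT and a median of 0.56 against 2.19. *Hk1*, the ubiquitous hexokinase, had a larger difference in FANKO than in WT mice (1.57 against 0.33), with 72.6 to 120 CPM in FANKO BAT and 28.1 to 41.0 in FANKO eWAT, and *Eno1*, enolase, gave 1.495 against 2.96. *Eno1* shares 27.6% of its 38-base stretches with other genes, so its count is uncertain. Of 79 cytosolic ribosomal protein genes, 51 were higher in FANKO eWAT and 1 in BAT with a median of -0.23, and these became 17 and 2 with library size, 21 and 3 without replicate 3 and 29 and 2 without the epididymis-marked libraries. That single gene, *Rpl39l*, a tissue-restricted relative of *Rpl39*, gave 5.82 (SE 0.41), from 2.06 to 6.88 CPM in BAT and at most 0.582 in eWAT.

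Genes of the interferon response were higher in FANKO BAT as a whole list. All 24 were higher in FANKO BAT, 21 over 2-fold, with a median of 2.07 against -0.77 in WT mice, where none was over 2-fold higher in BAT and 7 were over 2-fold higher in eWAT. The genotype difference was called towards BAT in all 24 under both scalings, and 8 of the 24 did not overlap between the FANKO depots. *Ifi44*, an interferon-induced protein, had 122.7, 196 and 344 CPM as lowest, median and highest in FANKO BAT and 8.97, 33.3 and 82.6 in FANKO eWAT, against medians of 1.76 and 3.14 in WT BAT and eWAT. By median, FANKO eWAT lay between WT tissue and FANKO BAT. *Ifit3*, of a family that binds foreign RNA, had 312 to 1469 CPM in FANKO BAT and 17.5 to 363 in FANKO eWAT (2.63, SE 0.20), ranges that overlapped, with a WT BAT median of 4.17. *Ifit3* shares 57.3% of its 38-base stretches with other genes, so its count is uncertain. *Irf7*, the factor that amplifies the response, gave 2.08 (SE 0.15) without overlap and *Irf9*, the DNA-binding partner of the STAT factors, 1.04 (SE 0.08).

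Promoters of these genes are shown because their members moved together and many hold the letters GAAA, any 2 bases, GAAA, the core of the interferon-stimulated response element. On either strand and within 250 bases before to 50 after the start, RefSeq promoters held it in 11 of 16 interferon genes with an entry (68.8%), in 4% of all 26742 promoters and in 3.92% of those of tested genes. A match describes the sequence and is not a measured binding site. For 4 of them the 250 bases before the start follow, 5′ to 3′ on the gene's strand (GRCm38.p6, RefSeq), with the match in either orientation in capitals.
Ifit1, chr19:34640639-34640888 (+ strand): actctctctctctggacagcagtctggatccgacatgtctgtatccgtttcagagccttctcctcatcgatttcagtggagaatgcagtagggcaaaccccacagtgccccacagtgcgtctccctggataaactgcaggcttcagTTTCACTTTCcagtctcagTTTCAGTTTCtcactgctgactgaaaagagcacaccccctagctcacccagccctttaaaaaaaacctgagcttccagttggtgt
Ifit3, chr19:34583279-34583528 (+ strand): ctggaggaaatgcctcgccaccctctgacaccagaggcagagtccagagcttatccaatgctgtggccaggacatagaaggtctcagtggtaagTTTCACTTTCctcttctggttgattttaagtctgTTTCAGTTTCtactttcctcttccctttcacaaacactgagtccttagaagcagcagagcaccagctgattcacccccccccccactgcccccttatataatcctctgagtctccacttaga
Isg15, chr4:156200819-156201068 (- strand): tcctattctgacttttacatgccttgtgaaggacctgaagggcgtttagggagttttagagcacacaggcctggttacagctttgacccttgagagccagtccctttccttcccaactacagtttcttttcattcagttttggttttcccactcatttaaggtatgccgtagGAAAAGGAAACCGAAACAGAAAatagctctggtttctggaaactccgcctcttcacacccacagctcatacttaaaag
Rsad2, chr12:26456453-26456702 (- strand): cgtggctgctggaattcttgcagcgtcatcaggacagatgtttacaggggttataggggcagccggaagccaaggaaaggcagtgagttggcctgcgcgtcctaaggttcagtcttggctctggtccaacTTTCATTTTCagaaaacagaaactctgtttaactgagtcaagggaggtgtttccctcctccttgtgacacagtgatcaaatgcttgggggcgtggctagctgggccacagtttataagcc
In FANKO mice *Ifit1* gave a log2 fold change of 2.495, *Isg15*, a ubiquitin-like modifier, 2.42, and *Rsad2*, the antiviral enzyme viperin, 2.55. *Rsad2* was also higher in WT BAT (0.65), where the other 3 were not.

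Lymphocyte genes followed the same depot. All 10 T and NK cell markers were over 2-fold higher in FANKO BAT, 7 without overlap, with a median of 2.38 against -1.29 in WT mice. Their summed level was 64.6 to 185 CPM in FANKO BAT and 13.2 to 45.3 in FANKO eWAT. *Cd3e*, a chain of the T cell receptor complex, had 3.37, 7.02 and 14.7 CPM as lowest, median and highest in FANKO BAT and 0.513, 0.976 and 1.39 in FANKO eWAT (2.93, SE 0.23, adjusted p = 3.60e-17), with medians of 0.312 and 0.537 in WT BAT and eWAT. *Cd4* (2.84) and *Foxp3*, the factor of regulatory T cells (2.05), did not overlap either. *Foxp3* shares 15.6% of its 38-base stretches with other genes, so its count is uncertain. The call of all 10 was the same without the muscle-marked, the epididymis-marked or the B cell-marked libraries. How far the interferon difference followed from the lymphocytes was not tested.
All 8 B and plasma cell markers were higher in FANKO BAT, 4 over 2-fold, and 6 were higher, 1 over 2-fold, without the 6 BAT libraries with the highest sum. *Jchain*, which joins secreted antibodies, had 31.4 to 279 CPM in FANKO BAT and 1.96 to 23.5 in FANKO eWAT (3.66). *Ighm*, the heavy chain of IgM, had 138, 222 and 1442 CPM in FANKO BAT and 137, 228 and 298 in FANKO eWAT, was called at 0.93, and stood at -0.14 without those 6 libraries.

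Macrophage markers went both ways. Of 10, 5 were higher in FANKO BAT (3 without the muscle-marked or the B cell-marked libraries) and 4 in FANKO eWAT, beside 28.0% and 31.6% of all genes tested. Summed levels overlapped (669 to 1611 against 719 to 1284 CPM). *Cd163*, the haemoglobin scavenger receptor of resident macrophages, was lower in FANKO BAT (2.62 to 12.8 CPM) than in FANKO eWAT (35.9 to 73.1 CPM), at -3.21 (SE 0.14). *Cd68*, a lysosomal marker, was higher in FANKO BAT (1.60, against -2.24 in WT mice), and so were *Trem2*, a lipid-sensing receptor of macrophages in stressed fat (2.09 against -3.55), and *Spp1*, osteopontin (4.94 against -0.34). *Spp1* had 11.5 to 80.3 CPM in FANKO BAT and 0.251 to 3.26 in FANKO eWAT. It shares 13.3% of its 38-base stretches with other genes, so its count is uncertain. *Trem2* and *Spp1* belong to a list of 10 markers of lipid-associated macrophages, of which 5 were higher in FANKO BAT, 2 in FANKO eWAT and 3 not called. The 2 were *Lpl* and *Cd36*, which adipocytes also express, and the summed level of the list ran the other way, from 4092 to 5560 CPM in FANKO BAT and from 8651 to 12610 in FANKO eWAT.
MHC class II genes were higher in FANKO BAT in 7 of 9, led by *H2-Oa* (2.47), with a median of 0.35 against -2.20 in WT mice, and in 3 of 9 without replicate 1, replicate 2, replicate 4, the muscle-marked or the B cell-marked libraries. Dendritic cell markers were higher in FANKO BAT in 4 of 6.

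**Figure D4:**
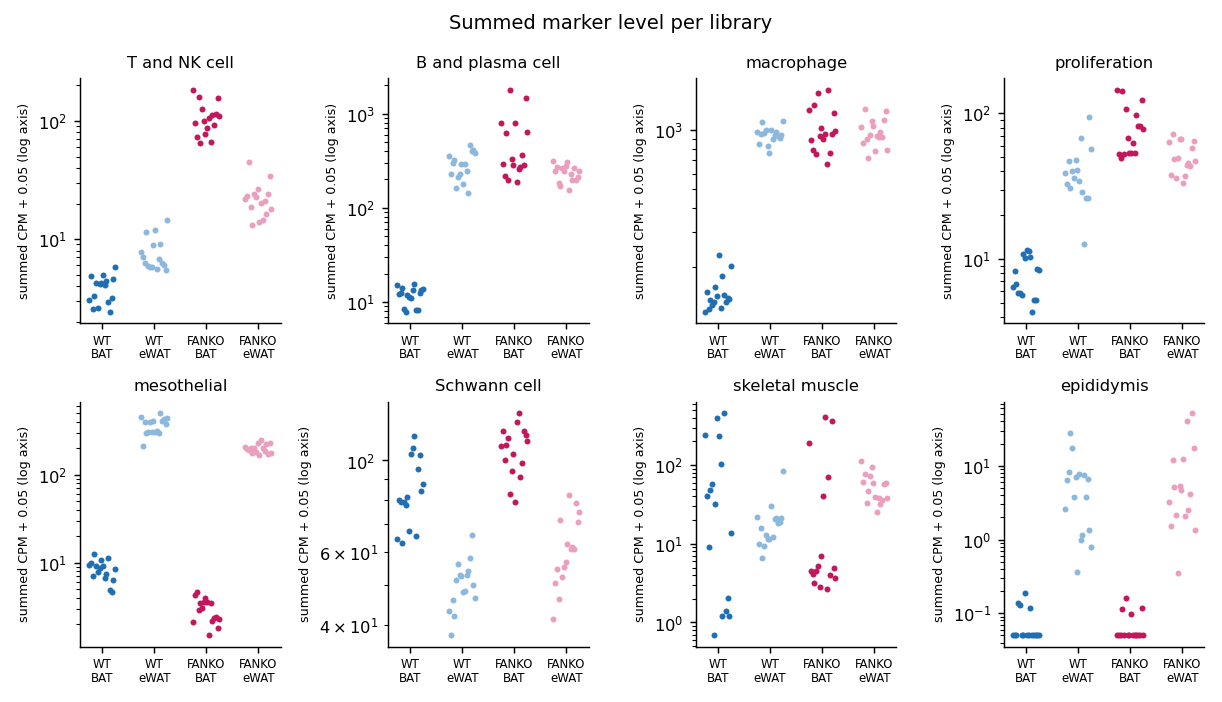
Summed level of the markers of 8 cell types in every library (CPM plus 0.05, log axis), by depot and genotype. T and NK cell markers are separate between FANKO BAT (64.6 to 185 CPM) and FANKO eWAT (13.2 to 45.3 CPM), macrophage sums overlap, and mesothelial markers are at most 4.59 CPM in every FANKO BAT library.

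Matrix genes lay on the eWAT side in WT mice (21 of 26 over 2-fold higher in WT eWAT, median -2.10). In FANKO mice they were called about as often as all genes tested. In FANKO BAT 9 were higher and in FANKO eWAT 8, with a median of -0.07, beside 28.0% and 31.6% of all genes. The genotype difference was called towards BAT in all 26 under both scalings. *Timp1*, an inhibitor of matrix proteases (1.72), and *Postn*, periostin (1.49), were over 2-fold higher in FANKO BAT. *Postn* had 165 to 361 CPM in BAT and 63.9 to 112 in eWAT. *Col1a1*, the fibrillar collagen chain, gave 1.03 (SE 0.17) against -1.41 in WT mice, and *Fn1*, fibronectin, -0.80 against -3.77.
Proliferation markers were higher in FANKO BAT in 4 of 8, with a median of 0.62 against -2.33. That count was 1 without replicate 1 or without the muscle-marked libraries, 0 without the B cell-marked libraries or at any single time point, and 7 without replicate 3 or with library size. The sum of these markers overlapped between the depots (49.2 to 145.9 against 33.1 to 72.3 CPM), and *Mki67*, a nuclear protein of dividing cells, had 20.95 to 66.9 CPM in FANKO BAT and 11.9 to 29.6 in FANKO eWAT (0.77).
Markers of Schwann cells and nerve were higher in FANKO BAT in 6 of 7 tested, 5 of them over 2-fold. *Sox10* (4.11), a factor of neural crest glia, was at a low level, with medians of 1.97 CPM in BAT and 0.120 in eWAT.
Skeletal muscle markers were higher in FANKO BAT in 6 of 9 tested and in none of 9 without the 5 muscle-marked libraries (2 of 9 without replicate 1, 2 or 4 or the B cell-marked libraries), and *Acta1*, skeletal actin, was over 2-fold higher in FANKO eWAT (-2.38).

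NAD genes were spread over both depots. Of 33 tested, 16 were higher in FANKO BAT (10 without replicate 1 and 9 without replicate 2) and 9 in FANKO eWAT, 3 and 3 over 2-fold. The shares of all genes tested were 28.0% and 31.6%, and 7.20% and 6.16% over 2-fold. The eWAT count and the reduced BAT counts were close to them. In synthesis, *Nmnat1*, the nuclear enzyme that completes NAD, was higher in BAT without overlap (0.89, SE 0.06, 15.5 to 28.1 against 10.4 to 13.5 CPM). *Kynu*, kynureninase of the route from tryptophan, was over 2-fold higher in FANKO BAT (2.11, SE 0.22) and lower in WT BAT (-4.66, SE 0.45), at medians of 3.15 and 0.641 CPM in FANKO BAT and eWAT and 0 and 0.775 in WT BAT and eWAT. All 3 genes of nicotinamide methylation and oxidation were higher in eWAT without overlap. *Nnmt*, which methylates nicotinamide, had 16.9 to 47.2 CPM in FANKO eWAT and 3.68 to 8.30 in FANKO BAT (-2.31, SE 0.15, against -2.94), and *Aox3*, an aldehyde oxidase, gave -3.84. Among consumers, *Sirt3*, the mitochondrial deacetylase, kept 1.37 (SE 0.07) of 2.74 in WT mice, with 18.9 to 29.4 CPM in BAT and 7.02 to 11.4 in eWAT, and *Parp14*, an interferon-induced transferase, gave 1.25 (SE 0.08) against -1.18.

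Genes of the integrated stress response, which cells switch on through ATF4, did not move as 1 group. Of 18, 3 were higher in FANKO BAT and 8 in FANKO eWAT, 2 and 5 over 2-fold. *Gdf15*, a hormone of stressed tissue (2.77, SE 0.22), and *Atf3*, a stress factor (1.95, SE 0.13), were higher in FANKO BAT, and *Atf3* was lower in WT BAT than in WT eWAT (-1.82). *Gdf15* had a median of 11.9 CPM in FANKO BAT, 1.63 in FANKO eWAT and 0.0250 in WT BAT. The serine synthesis genes *Psat1* (-3.59, 127 to 218 CPM in FANKO eWAT and 10.4 to 18.1 in FANKO BAT) and *Phgdh* (-5.05) were on the eWAT side in both genotypes. *Phgdh* shares 53.1% of its 38-base stretches with other genes, so its count is uncertain. *Trib3*, a pseudokinase induced by ATF4, was over 2-fold higher in FANKO eWAT (-1.71 against 0.36).

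The genes with the smallest p for a depot difference that differed between FANKO and WT mice were named by rule. Towards BAT these were *Ptprf*, *C2*, *Trim14*, *Cers6* and *Cfb*. *Ptprf*, a receptor tyrosine phosphatase, was 36.2, 55.6 and 90.1 CPM as lowest, median and highest in FANKO BAT, 12.8, 17.3 and 24.2 in FANKO eWAT and at a median of 1.58 in WT BAT and 44.7 in WT eWAT, so its log2 fold change went from -4.77 (SE 0.13) to 1.69 (SE 0.10). *Cers6*, a ceramide synthase, went from -4.57 to -0.31, and *C2* and *Cfb*, complement proteases that share exons with the readthrough gene *Gm20547*, from -5.16 to -0.77 and from -4.88 to 0.16. *Trim14*, a sensor adaptor, went from -3.34 to -0.08. Towards eWAT these were *Fuom*, *Chchd10*, *Mrpl3*, *Sdhb* and *Fam210a*. *Chchd10*, a protein of the mitochondrial intermembrane space, had medians of 523 CPM in WT BAT and 23.8 in WT eWAT but 341 and 312 in FANKO BAT and eWAT (4.18 and 0.05). *Fuom*, fucose mutarotase, went from 2.93 to -0.13, and *Fam210a*, a mitochondrial membrane protein, from 2.93 to 0.93.

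The size of the depot difference changed with time of day in 249 genes (1.23%) of FANKO mice. This count moved the most of those given, from 31 to 187 when 1 replicate number was left out, 55 without the muscle-marked BAT libraries (which left 1 BAT library at ZT 18), 72 without the epididymis-marked eWAT libraries and 119 without the B cell-marked BAT libraries. Of the 249, 152 had their most positive value at ZT 18 and 120 their most negative at ZT 6.
Of the 24 interferon genes, 22 were called. Their median log2 fold change over the 4 time points, ZT 6, 10, 18 and 22, was 1.12, 1.80, 3.55 and 1.92. The count of 22 fell to 3 without replicate 2, to 8 without replicate 1, to 11 without replicate 3, to 1 without the muscle-marked, 6 without the epididymis-marked and 9 without the B cell-marked libraries, and to 11 with FANKO libraries alone in the fit, while all 24 were higher in BAT in each of these.
*Usp18* (ENSMUSG00000030107, GRCm38 chromosome 6, 121245906 to 121270917), which removes ISG15 and restrains interferon signaling, had 11.3, 15.1, 16.2 and 17.4 CPM in FANKO eWAT at ZT 18 and 63.6, 49.9, 131 and 60.4 CPM at ZT 6. In FANKO BAT it had 394, 352, 234 and 176 CPM at ZT 18 and 128, 194, 232 and 123.1 CPM at ZT 6. At ZT 18 the depots were far apart and at ZT 6 1 eWAT library lay within the BAT range. The log2 fold change was 1.15 (SE 0.28), 1.79 (SE 0.28), 4.27 (SE 0.32) and 2.44 (SE 0.29) in the same order of time points (adjusted p of the change = 6.73e-06, edgeR). *Ifit3* went through 1.25, 1.77, 4.79 and 2.69, with eWAT means of 213 ± 104 (SD, n = 4), 144 ± 74.2, 32.1 ± 10.6 and 131 ± 60.0 CPM.

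*Pim1*, a kinase induced by cytokines, had the smallest p for a change with time. In FANKO BAT it had 47.0, 104, 89.9 and 71.5 CPM at ZT 6 and 26.3, 37.7, 33.5 and 26.2 CPM at ZT 18. In FANKO eWAT it had 15.6, 12.4, 17.4 and 13.7 CPM at ZT 6 and 16.4, 20.5, 15.5 and 15.7 CPM at ZT 18. BAT libraries were above eWAT libraries at both times, by a wider margin in the light phase. The log2 fold change was 2.397 (SE 0.21), 2.88 (SE 0.22), 0.86 (SE 0.20) and 0.86 (SE 0.20) at ZT 6, 10, 18 and 22 (adjusted p = 2.61e-06, edgeR), and in WT mice 4.48, 4.88, 3.40 and 3.51.
*Dnajb9*, a cochaperone of the endoplasmic reticulum, was close between the depots at ZT 10 (0.13) and higher in eWAT at ZT 18 (-1.43) and ZT 22 (-1.47), where eWAT means were 67.9 ± 15.2 and 63.5 ± 9.54 CPM against 25.2 ± 4.66 and 22.8 ± 0.664 in BAT (SD, n = 4). *Bbs10*, a chaperonin-like ciliopathy gene, went from -0.82 at ZT 6 to 0.88 at ZT 18 and *Plekhm2*, a lysosome positioning gene, from 0.65 at ZT 10 to -0.32 at ZT 18. Whether these changes with time differ from those of WT mice was not tested.

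**Figure D5:**
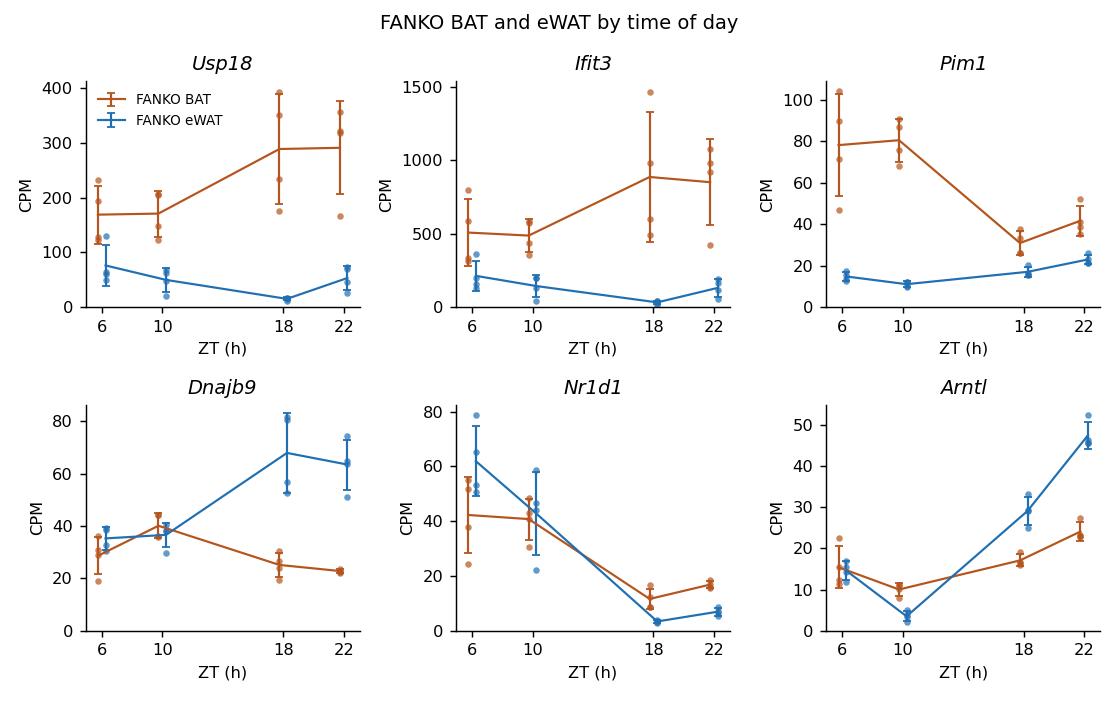
CPM of 6 genes in FANKO BAT and FANKO eWAT by time point, points for libraries and lines for the mean ± SD (n = 4). *Usp18* and *Ifit3* are lowest in eWAT at ZT 18, *Pim1* is highest in BAT at ZT 6 and ZT 10, and the means of *Nr1d1* run from 3.41 to 61.9 CPM in eWAT and from 11.6 to 42.3 CPM in BAT.

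Clock genes differed little in mean level, and some by time of day. Of 18, none was over 2-fold different between the FANKO depots, 1 was higher in BAT and 7 in eWAT, while 5 had a depot difference that changed with time. These 5 became 0 without replicate 2 and 3 without replicate 3, without replicate 4 or without the epididymis-marked libraries. *Nr1d1*, the repressor REV-ERBα, fell in eWAT from 61.9 ± 12.8 CPM at ZT 6 to 3.41 ± 0.492 at ZT 18 (SD, n = 4) and in BAT from 42.3 ± 13.9 to 11.6 ± 3.73, so its log2 fold change was -0.55 (SE 0.23) at ZT 6 and 1.79 (SE 0.28) at ZT 18 (adjusted p of the change = 2.11e-05, edgeR). *Arntl*, the activator BMAL1, had eWAT means of 3.52 ± 1.24 at ZT 10 and 47.5 ± 3.28 at ZT 22 and BAT means of 10.02 ± 1.496 and 24.1 ± 2.21, with log2 fold changes of 1.51 (SE 0.28) and -0.98 (SE 0.23) and no overlap between the depots at either time. *Nfil3*, a bZIP repressor, went from 1.48 at ZT 10 to -0.79 at ZT 22, *Cry1* from 0.17 at ZT 6 to -0.78 at ZT 22, and *Ciart* stood at -1.52 at ZT 10 alone, with 16.1 ± 4.44 CPM in eWAT and 5.65 ± 0.624 in BAT. *Ciart* shares 17.2% of its 38-base stretches with other genes, so its count is uncertain. Averaged over the day, *Dbp*, an output factor of the clock, was higher in eWAT (-1.10, SE 0.12).
The letters CACGTG, the E-box that CLOCK and BMAL1 bind, were found on 300 bases of RefSeq promoter in 5 of 16 clock genes with an entry (31.2%), in 8.11% of all promoters, in 10.9% of those of tested genes and in 17 of 187 genes whose depot difference changed with time (9.09%). The GAAA motif was held by 42 of those 187 (22.5%) and by 32 of 172 outside the interferon list (18.6%). For 2 of the clock genes called for time the 250 bases before the start follow, 5′ to 3′, with CACGTG in capitals (GRCm38.p6, RefSeq).
Cry1, chr10:85185055-85185304 (- strand): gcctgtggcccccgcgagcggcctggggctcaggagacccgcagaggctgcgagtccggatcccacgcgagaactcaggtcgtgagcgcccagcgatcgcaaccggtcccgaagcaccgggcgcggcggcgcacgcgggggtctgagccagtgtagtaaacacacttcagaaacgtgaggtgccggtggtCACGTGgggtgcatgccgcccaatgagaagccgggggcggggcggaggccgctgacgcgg
Ciart, chr3:95882229-95882478 (- strand): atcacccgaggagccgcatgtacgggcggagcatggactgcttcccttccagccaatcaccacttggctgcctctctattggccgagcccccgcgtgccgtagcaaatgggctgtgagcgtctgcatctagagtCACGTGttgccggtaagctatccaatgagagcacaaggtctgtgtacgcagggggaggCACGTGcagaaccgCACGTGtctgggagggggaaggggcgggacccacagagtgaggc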

How the data were processed

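Total RNA from BAT and eWAT of male FANKO and WT mice was sequenced at 4 time points, 4 libraries for each of 16 groups, and groups came from the sample labels. The authors depleted ribosomal RNA, made stranded libraries, sequenced 38-bp read pairs, aligned them with STAR 2.5.3a to GRCm38.p5 and deposited raw counts per gene from featureCounts 1.5.3, without normalization or pooling. The strand and multi-mapping options of the counting are not given in the sources used here.

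The counts were analysed as deposited with edgeR 4.0.16 in R 4.3.3. Of 52636 genes, 20249 passed filterByExpr on the 16 groups (minimum count 10, minimum total 15). Libraries were scaled by TMM, and 1 quasi-likelihood model with a mean for each of the 16 groups was fitted to all 64 libraries. Contrasts tested the FANKO depot difference averaged over time points, the same against a 2-fold difference (glmTreat), its difference from WT mice, and its change between time points. P values were adjusted over the 20249 genes by the Benjamini-Hochberg method, and genes under an FDR of 0.01 were called. The fits were run on simulated counts in which few genes differed, equally in both directions and in FANKO libraries alone. Such counts cannot test the scaling on which the genotype differences rest. DESeq2 1.42.0 served as an alternative, beside other scalings, filters, samples and a replicate block. Leaving out libraries with markers of muscle, epididymis or B cells was chosen after seeing the data. Intervals on ratios of counts (95%) and the floor of 3 counts cover counting error only.

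The members and gene lists were chosen with earlier results of these data known. Named genes were 2 to 4 members of each list with the largest differences or opposite in direction, the 10 largest differences over 2-fold in each direction among genes whose depots did not overlap, whose mean level in the higher depot was 3 or more on the log2 CPM scale and whose symbols were not those of predicted genes or clones, and the 5 smallest p for each difference between genotypes in each direction and for time. Other genes were named after their values were seen, as were the sequences, and a few genes are not reported here. Symbols and coordinates came from GENCODE M21 on GRCm38, which named 52489 identifiers, and shared 38-base stretches from its transcripts. Totals per library of 6117343 to 30544847 counts set the precision. Nothing in the labels says whether the 4 libraries of a group came from separate mice, so p-values measure the spread between these libraries, or whether the BAT and eWAT libraries with equal numbers came from 1 mouse.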

Additional observations from a re-analysis of the deposited data

Results flagged for a closer look

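In groups of 4 libraries, a highest or lowest value was singled out when its gap to the next took most of the range of the group, which chance alone does in about 1 in 20 groups. The screen covered 12 genes, *Nampt*, *Usp18*, *Pim1*, *Dnajb9*, *Bbs10*, *Plekhm2*, *Ifit3*, *Arntl*, *Nr1d1*, *Cry1*, *Ciart* and *Nfil3*, and 9 of 96 groups were singled out. *Ucp1*, *Cidea*, *Upk3b*, *Lep*, *Sdhb*, *Cox7a1* and *Cd3e*, also plotted by library, were not screened. *Usp18* stood at 131 CPM in 1 FANKO eWAT library at ZT 6, where the others had 49.9 to 63.6 CPM, and that library (replicate 3) is among those with epididymis markers. In FANKO BAT at ZT 6, replicate 1, which carries muscle and B cell markers, was high for *Bbs10* (5.69 CPM) and low for *Plekhm2* (38.95 CPM). The other flags were *Bbs10* at 3.61 CPM in FANKO eWAT at ZT 18, *Plekhm2* at 36.3 CPM in FANKO eWAT at ZT 10, *Arntl* at 27.4 CPM in FANKO BAT and 52.4 CPM in FANKO eWAT at ZT 22, *Ciart* at 2.74 CPM in FANKO BAT at ZT 18 and *Nfil3* at 19.6 CPM in FANKO eWAT at ZT 18.

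Depot differences that differed between FANKO and WT mice were called in 6477 genes towards BAT and 6484 towards eWAT. The named genes had differences on the log2 scale, FANKO minus WT, of 6.45 for *Ptprf*, 4.39 for *C2*, 3.26 for *Trim14*, 4.27 for *Cers6* and 5.04 for *Cfb*, and of -3.06 for *Fuom*, -4.13 for *Chchd10*, -1.59 for *Mrpl3*, -2.70 for *Sdhb* and -1.998 for *Fam210a*. Depot differences that changed with time in FANKO mice were called in 249 genes, and the smallest adjusted p-values (edgeR) were 2.61e-06 for *Pim1*, 2.92e-06 for *Dnajb9*, 3.22e-06 for *Bbs10*, 6.73e-06 for *Usp18* and 1.02e-05 for *Plekhm2*.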

How the results depend on the processing

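Counts give relative levels, depth sets what low genes can show, and 4 libraries in a group bound the tests by time. The 12069 genes with a FANKO depot difference were 9476 to 13831 over the settings that kept all time points and 6710 to 7055 at single time points. The 2706 over 2-fold stayed within 1.5 times, but their part higher in eWAT, 1248, was 813 with a minimum count of 50, where fewer genes were tested. The 12961 differences between genotypes split into 6477 towards BAT and 6484 towards eWAT with TMM (50% towards BAT) and into 13624 and 1568 with library size alone (89.7% towards BAT). The 249 genes that changed with time were 481 at an FDR of 0.05, 142 with library size alone, 31 to 187 when 1 replicate number was left out (83 without replicate 1, 31 without replicate 2 and 90 without replicate 3), 55 without the muscle-marked, 72 without the epididymis-marked and 119 without the B cell-marked libraries. Leaving out libraries lowers the number of samples, and beyond that the cause was not tested. DESeq2 gave 12219, 2354, 12982 and 355 for the 4 counts.

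The 128 genes named or plotted gave 2809 values over 22 settings. Of these, 2693 were the same, 61 lost the call, 22 gained it, 24 moved by more than the spread and 9 reversed. Same meant an equal call and direction, or no call in either fit whatever the sign. For log2 CPM differences, which have no test, it meant a shift within the spread. Sign changes of genes called in neither fit were not counted as reversals. On the log2 scale, *Nr1d1* was -0.55 at ZT 6 and -0.074 at ZT 10, *Arntl* 1.51 and *Dnajb9* 0.13 at ZT 10, and *Bbs10* 0.88, *Plekhm2* -0.32 and *Trim14* 0.47 at ZT 18, each against the opposite sign over all time points. *Ckmt2* was -0.18 without the muscle-marked libraries and *Ighm* -0.14 without the B cell-marked ones.

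With replicate number as a block within genotype and time point the 4 counts were 12203, 2783, 13036 and 300, and with a block across all groups 12173, 2727, 13050 and 287. Over 16 pairs of FANKO BAT and eWAT libraries with equal numbers, deviations from the group means correlated between -0.133 and 0.212, over 0.1 in 5 pairs. In these, 8 libraries matched best with their own number, more often than a random match among 4 would give. In WT mice the correlation reached 0.306. There, every BAT library at ZT 18 matched best with its own number, and at each other time point some did and some did not. These values do not settle whether equal numbers came from 1 mouse, and the block was kept as an alternative. The block within genotype and time point changed the call of 2 named genes, *Cry1* (-0.17, gained) and *Ighm* (0.54, lost).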

Other observations

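A stretch of the X chromosome held the largest differences between the FANKO depots. It was chosen after its values were seen and lies on GRCm38 chromosome X between 102686292 and 102929094. *1700018G05Rik* had 83.6, 198 and 454 CPM as lowest, median and highest in FANKO BAT and at most 1.43 CPM in any other library, a log2 fold change between the FANKO depots of 11.74 (SE 0.28). *Gm3880* had 37.7 to 176 CPM in FANKO BAT and at most 0.717 elsewhere. *Dmrtc1a*, a relative of the doublesex factors, had 7.60 to 24.4 CPM and *1700011M02Rik* 1.08 to 6.43 CPM in FANKO BAT. These loci share sequence, with 30.8% of the 38-base stretches of *1700011M02Rik* and 13.3% of those of *Gm3880* found in other genes, so their counts cannot be assigned to 1 of them with certainty. All 16 FANKO BAT libraries were above the other 48 for these genes.

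Genes of that kind were more frequent in FANKO BAT than in FANKO eWAT. In 446 genes every FANKO BAT library lay above all other 48 libraries, against 84 for FANKO eWAT, 1167 for WT BAT and 182 for WT eWAT. In 8 of the 446 the lowest FANKO BAT library was at least 4 times the highest other library. Beside the X-linked genes *1700018G05Rik*, *Gm3880* and *1700011M02Rik*, these were *Myl3*, *Bmp8b*, *Gm15318*, and *Ubd* and *Tgtp1*, which interferon induces. *Ubd*, a ubiquitin-like protein, had 48.3 to 129 CPM in FANKO BAT and at most 8.06 elsewhere. In FANKO eWAT *Ccn5*, a matricellular protein, had 45.8 to 130 CPM and at most 20.1 elsewhere, and *Slc5a7*, a choline carrier, 7.28 to 25.8 and at most 4.05. No test was run on these counts.

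Mitochondrial carriers of the Slc25 family lay on both sides, with 14 of 44 tested higher in FANKO BAT and 11 in FANKO eWAT (median 0.01), close to the shares of all genes tested (28.0% and 31.6%). Endothelial markers were higher in FANKO eWAT in 6 of 8 (5 with library size), and erythroid markers in 4 of 6 (2 with library size or without replicate 1, 2 or 4). Of 8 progenitor and stromal markers, 4 were higher in FANKO BAT and 3 in FANKO eWAT. Of 8 epididymis markers tested, 2 were higher in FANKO eWAT. Of 11 genes of the p53 and senescence list, 6 were higher in FANKO BAT and 2 in FANKO eWAT. Mural cell markers were higher in FANKO BAT in 1 of 8 and in FANKO eWAT in 4, neutrophil markers higher in BAT in 1 of 3 tested, and mast cell markers in 1 of 5 tested with 1 higher in eWAT. All these counts stand beside the same shares of all genes tested, 28.0% higher in FANKO BAT and 31.6% in FANKO eWAT. The epididymis and mast cell counts did not exceed those shares, and no test compared a list with them.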
